A study of Homo sapiens with 8 samples.

Results

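Transcript levels of 10 genes that limit or feed ferroptosis were examined among the 60671 genes measured by RNA-seq in MM.1S cells, an established human multiple myeloma (MM) cell line. The genes were named by their known roles, 5 on the defence side (GPX4, SLC7A11, AIFM2, GCH1 and DHODH) and 5 on the side of lipid peroxidation and the mitochondrial membrane (ACSL4, ACSL3, LPCAT3, POR and VDAC2). These genes were chosen with earlier results of these data known. All samples were wild-type MM.1S cells collected at 12 h, and they formed 4 groups of 2 samples that received vehicle, FeAc (a compound given to supply iron), bortezomib (BTZ, a proteasome inhibitor used against myeloma) or bortezomib plus FeAc. For FeAc with MM.1S cells the supplementary legends give 300 μM, and no source used here states the bortezomib dose. The labels name 1 cell line and no other cells in the cultures.

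Ferroptosis is an iron-dependent form of cell death in which polyunsaturated fatty acids within membrane phospholipids are oxidized to lipid hydroperoxides. GPX4 reduces these hydroperoxides with glutathione, whose cysteine is drawn from cystine imported by SLC7A11. Other defences act beside it: AIFM2 (also called FSP1) reduces ubiquinone at cell membranes, DHODH reduces it in the inner mitochondrial membrane, and GCH1 starts the synthesis of tetrahydrobiopterin, a radical-trapping cofactor. On the other side, ACSL4 and LPCAT3 load polyunsaturated fatty acids into phospholipids, ACSL3 activates monounsaturated fatty acids, POR passes electrons that can drive lipid oxidation, and VDAC2 is a channel of the outer mitochondrial membrane.

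The promoters of AIFM2, which had a motif match, and of GPX4, the main enzyme against lipid hydroperoxides, which had none, are printed as examples. AIFM2 was picked after its rise with bortezomib was seen, so the pair is no test of the motif. They were taken from RefSeq on GRCh38.p14, from 250 bases before to 50 bases after the start, and 7 of the 10 genes were matched. SLC7A11, GCH1 and POR had no entry. GPX4 and VDAC2 had alternative starts, all of which were searched, and the most upstream promoter of GPX4 is printed. Searched on both strands were the antioxidant response element core TGACNNNGC bound by NRF2, the amino acid response element TGATGNAA bound by ATF4, and a heat shock element of GAA, TTC and GAA units with 2 bases between them.
AIFM2 promoter, chr10:70132776-70133075, minus strand: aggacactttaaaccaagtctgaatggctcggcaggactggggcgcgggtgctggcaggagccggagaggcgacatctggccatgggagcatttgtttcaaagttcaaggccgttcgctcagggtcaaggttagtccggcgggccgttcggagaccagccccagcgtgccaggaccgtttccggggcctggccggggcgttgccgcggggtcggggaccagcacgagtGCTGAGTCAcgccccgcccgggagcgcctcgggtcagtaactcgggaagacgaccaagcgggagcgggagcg
GPX4 promoter, chr19:1103744-1104043, plus strand: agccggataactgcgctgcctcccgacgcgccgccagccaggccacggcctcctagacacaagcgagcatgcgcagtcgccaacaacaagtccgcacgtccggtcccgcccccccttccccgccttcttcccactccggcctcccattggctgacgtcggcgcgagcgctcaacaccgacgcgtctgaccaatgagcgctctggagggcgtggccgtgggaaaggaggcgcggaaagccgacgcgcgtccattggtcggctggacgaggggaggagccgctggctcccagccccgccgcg
In the AIFM2 sequence the capitals mark the antioxidant response element core, read on the opposite strand, from -22 to -14 relative to the start. It was the only match among the promoters of the 7 genes. This core was present in 13.3% of the 35116 promoters in the table, the amino acid response element in 3.62% and the heat shock element in 0.49%. A match of this kind is a description of the letters in the window and no binding was measured here.

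Levels are in TPM, the length-scaled share of each transcript in its sample, which can be compared between genes within a sample. They hold no read counts, so the depth behind each value is unknown, and values are given as mean ± SD (n = 2). Differences are log2 fold changes on log2(TPM + 1) from limma, which understate the change of genes near 0 TPM. A gene was called when its adjusted p was under 0.05 and its fold change was over 1.5. Gene positions are on GRCh38. In these bulk samples, a change of RNA per cell and a change in the proportion of cells that carry it cannot be told apart.

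The labels were checked before the results. All 9 plasma cell markers were at 1 TPM or more in every sample, and their sum was 4042 to 9811 TPM. Markers of B cells summed to at most 0.65 TPM, T cells to 1.38, myeloid cells to 2.26, epithelial cells to 4.29, stromal cells to 8.65 and erythroid cells to 13.5. HSPA1A, a heat shock chaperone induced by proteasome inhibition, was at 1.69 to 7.18 TPM in the 4 samples without bortezomib and at 3052.62 to 6388.15 TPM in the 4 with it. The samples had 13020 to 13770 genes at 1 TPM or more. Mitochondrially encoded genes took 2.99% of the TPM in replicate 1 of bortezomib plus FeAc and 5.49% to 14.3% in the other 7 samples, and the 2 samples of that group had the lowest correlation within a group (r = 0.961 across genes, against 0.971 to 0.975). Without this library the calls given below for SLC7A11, AIFM2 and GCH1 held, and that for DHODH did not.

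GPX4 was the most abundant of the 10 transcripts in every group. Over all 8 samples it averaged 278 TPM, above 97.0% of the genes tested, followed by VDAC2 (105 TPM), AIFM2 (32.2), POR (28.7), ACSL3 (18.3), LPCAT3 (13.9), ACSL4 (12.9), DHODH (7.88), SLC7A11 (6.66) and GCH1 (5.75). Group means spread most for SLC7A11, 21.9 times from the lowest to the highest group, then for AIFM2 (3.91 times) and DHODH (2.63 times). They spread least for VDAC2 (1.11 times).

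**Figure D1:**
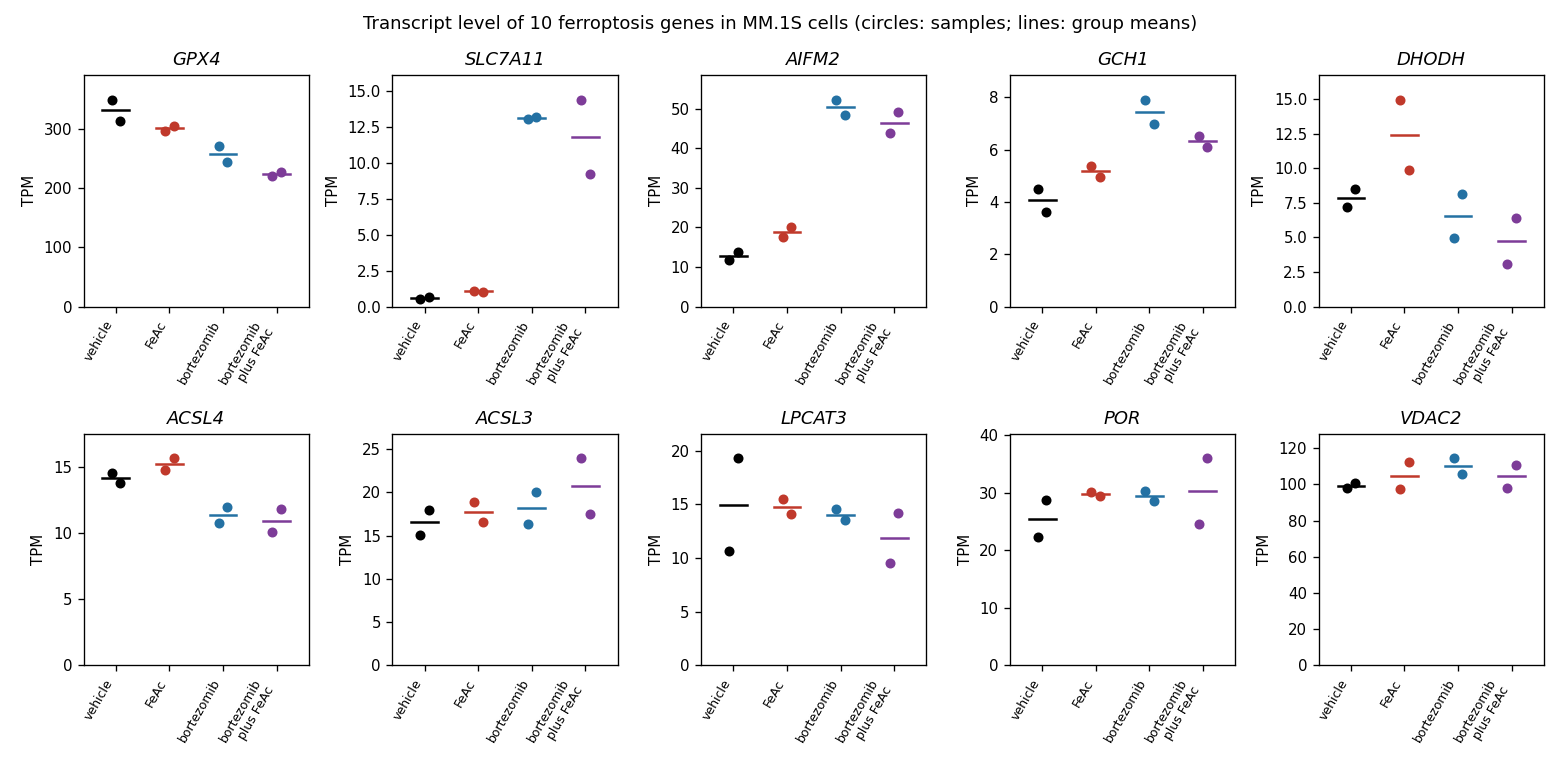
Transcript level (TPM, axes from 0) of the 10 genes in each of the 8 samples, with circles for samples and lines for the means of the 4 groups. SLC7A11 and AIFM2 are high in all 4 samples with bortezomib and low in all 4 without it, whereas the group means of GPX4 run from 331 TPM with vehicle to 223 TPM with bortezomib plus FeAc.

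The first question was how bortezomib alters these genes without and with added iron. Bortezomib raised SLC7A11 and AIFM2, the cystine importer and the ubiquinone reductase of cell membranes, against vehicle, and GCH1 passed the same thresholds by a narrow margin. Thus 3 of the 10 genes were called, all on the defence side and all higher, where 12.2% of all genes tested were called in either direction, 6.27% higher and 5.89% lower. At an unadjusted p under 0.05 the count was 4 of 10 against 30.2% of all genes, GPX4 being the fourth. With FeAc in both arms, SLC7A11 and AIFM2 were again called higher and DHODH was called lower, which made 3 of 10 against 13.8% of all genes, 4.94% higher and 8.86% lower, and 5 of 10 against 32.3% at an unadjusted p under 0.05, with GPX4 and ACSL4 beside these 3. In the higher direction, samples did not overlap for 4 of 10 genes against vehicle (SLC7A11, AIFM2, GCH1 and VDAC2) and for 3 of 10 against FeAc (SLC7A11, AIFM2 and GCH1), where 26.1% and 19.4% of all genes did so. None of the 5 genes on the lipid peroxidation side was called in either comparison. The groups with and without bortezomib are in separate deposited tables, so a table difference and the effect of bortezomib cannot be told apart by these 2 comparisons.

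**Figure D2:**
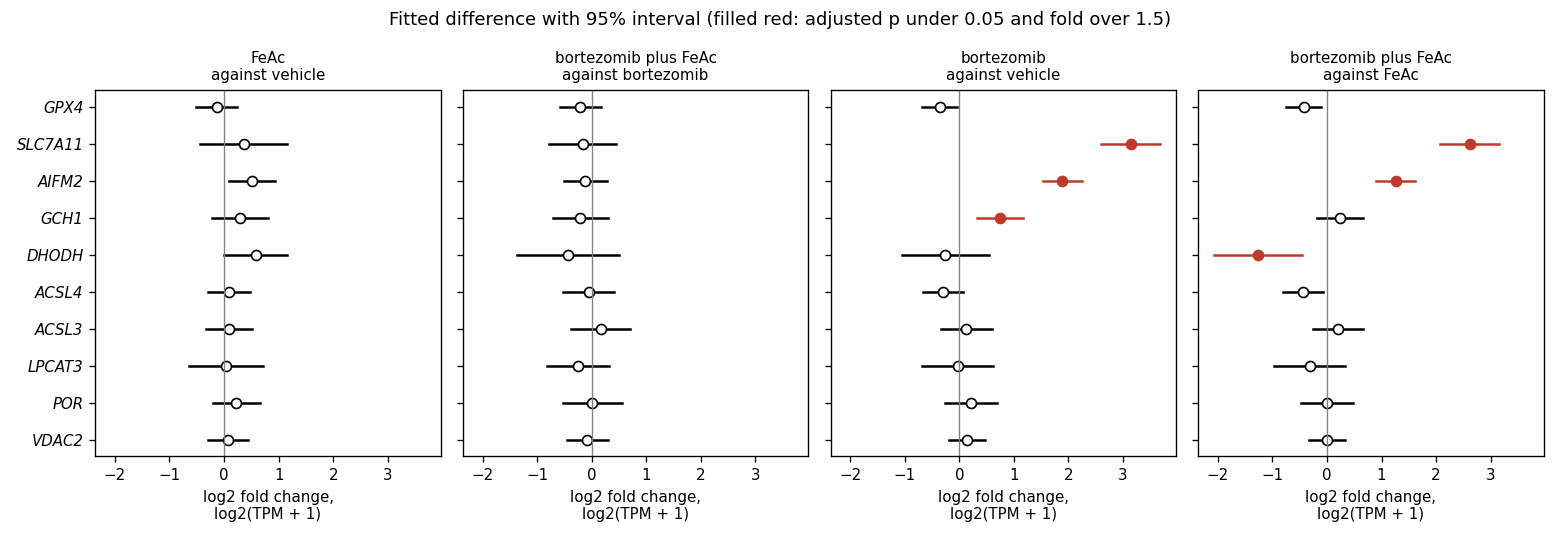
Log2 fold change on log2(TPM + 1) of each of the 10 genes in 4 comparisons, with bars for the 95% confidence interval of the fit and filled red symbols for genes called. SLC7A11 (3.14 and 2.61) and AIFM2 (1.89 and 1.26) stand to the right in both bortezomib comparisons, DHODH (-1.27) stands to the left in bortezomib plus FeAc against FeAc, and no gene is called in the 2 FeAc comparisons.

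SLC7A11 (ENSG00000151012, chr4:138164097-138242349, minus strand) is the light chain of the cystine and glutamate exchanger. It was at 0.53 and 0.67 TPM with vehicle, at 1.07 and 1.04 TPM with FeAc, at 13.07 and 13.19 TPM with bortezomib, and at 14.42 and 9.26 TPM with bortezomib plus FeAc. All 4 samples with bortezomib lay above all 4 without it. The group means were 21.9-fold apart between bortezomib (13.1 ± 0.0849) and vehicle (0.600 ± 0.0990), and 11.2-fold apart between bortezomib plus FeAc (11.8 ± 3.65) and FeAc (1.06 ± 0.0212). On the log2(TPM + 1) scale the differences were 3.14 (SE 0.23, adjusted p = 0.00147) and 2.61 (SE 0.23, adjusted p = 0.00290). The first was called without each sample in turn, and the second lost its call without replicate 2 of FeAc (adjusted p = 0.0547). With a vehicle mean under 1 TPM, this gene entered the tests only through the other groups.

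AIFM2 (ENSG00000042286, chr10:70098223-70132934, minus strand) was at 11.86 and 13.92 TPM with vehicle, at 17.69 and 20.10 TPM with FeAc, at 52.33 and 48.38 TPM with bortezomib, and at 43.79 and 49.23 TPM with bortezomib plus FeAc. The samples with bortezomib overlapped each other and no sample without it. Its mean was 3.91-fold higher with bortezomib than with vehicle (log2 fold change 1.89, SE 0.15, adjusted p = 0.00166), and the call held without each sample in turn. Against FeAc the mean with both agents was 2.46-fold higher (log2 fold change 1.26, SE 0.15, adjusted p = 0.00649). The latter call was lost without replicate 1 of FeAc (adjusted p = 0.0750), without replicate 2 of FeAc (adjusted p = 0.0628) and in a fit of these 2 groups alone (adjusted p = 0.0503). The promoter of this gene is the one that holds the antioxidant response element core printed above, and a link to its level was not tested.

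GCH1 (ENSG00000131979, chr14:54842008-54902852, minus strand) was the least abundant of the 10 genes on average. It was at 4.49 and 3.63 TPM with vehicle, at 5.38 and 4.95 TPM with FeAc, at 7.91 and 6.98 TPM with bortezomib, and at 6.53 and 6.10 TPM with bortezomib plus FeAc. No pair of groups that were neighbours in the order overlapped, with bortezomib highest and vehicle lowest. Bortezomib was 1.83-fold above vehicle (log2 fold change 0.74, SE 0.18, adjusted p = 0.0384). This call was lost without any 1 sample of the vehicle, FeAc or bortezomib groups, with adjusted p of up to 0.199, and it was kept without either sample of bortezomib plus FeAc. Against FeAc, both agents together gave a log2 fold change of 0.25 (SE 0.18, adjusted p = 0.380).

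DHODH (ENSG00000102967, chr16:72008588-72027664, plus strand), an enzyme of pyrimidine synthesis as well, varied widely within groups. It was at 7.17 and 8.52 TPM with vehicle, at 14.97 and 9.85 TPM with FeAc, at 4.97 and 8.15 TPM with bortezomib, and at 3.05 and 6.37 TPM with bortezomib plus FeAc. Both FeAc samples lay above all others, and the remaining 3 groups overlapped with their neighbours. Bortezomib plus FeAc against FeAc gave a log2 fold change of -1.27 (SE 0.35, adjusted p = 0.0491), while bortezomib against vehicle gave -0.25 (SE 0.35, adjusted p = 0.664). The call at 0.0491 was kept in 1 of 8 fits that left out a sample, the one without replicate 2 of bortezomib plus FeAc. Without replicate 1 of that group, the library with the lowest mitochondrial share, the difference was -0.84 (adjusted p = 0.244).

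GPX4 (ENSG00000167468, chr19:1103926-1106791, plus strand) went the other way from the 3 other defence genes that were higher with bortezomib. It was at 349.48 and 313.13 TPM with vehicle, at 297.01 and 304.78 TPM with FeAc, at 271.07 and 244.84 TPM with bortezomib, and at 220.26 and 226.48 TPM with bortezomib plus FeAc. The 4 groups stood in this order with no overlap between neighbours. The mean with bortezomib differed from that with vehicle by -22.1%, and the mean with both agents differed from that with FeAc by -25.8%. Neither difference was called, with a log2 fold change of -0.36 (SE 0.14, 95% interval -0.68 to -0.036, adjusted p = 0.131) and of -0.43 (SE 0.14, adjusted p = 0.0782). Both are smaller than the fold limit of the call, and samples that do not overlap in the lower direction were found for 35% and 39.4% of all genes in these comparisons. The size of the GPX4 difference depended on the settings. Under the alternatives to the main fit other than leaving out single samples, it ranged from -0.36 to -0.28 against vehicle. Against FeAc it ranged from -0.43 to -0.22.

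Among the lipid peroxidation genes, ACSL4 (ENSG00000068366, chrX:109624244-109733403, minus strand) encodes the ligase that activates polyunsaturated fatty acids. It was at 14.57 and 13.81 TPM with vehicle, at 14.76 and 15.64 TPM with FeAc, at 10.79 and 11.95 TPM with bortezomib, and at 10.05 and 11.84 TPM with bortezomib plus FeAc. All 4 samples with bortezomib lay under all 4 without it, yet the differences were not called, with a log2 fold change of -0.30 (SE 0.16, adjusted p = 0.240) against vehicle and of -0.44 (SE 0.16, adjusted p = 0.0953) against FeAc. Under the same alternatives as for GPX4 they ranged from -0.32 to -0.23 against vehicle and from -0.47 to -0.25 against FeAc. ACSL4 and GPX4 were the 2 of 10 genes whose samples lay lower without overlap in both comparisons, and DHODH did so against FeAc only. These 2 and 3 of 10 lie under the 35% and 39.4% of all genes that did so.

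ACSL3 (ENSG00000123983, chr2:222860934-222944639, plus strand), which competes with ACSL4 for the kind of fatty acid that enters phospholipids, was at 15.10 and 17.97 TPM with vehicle, at 18.85 and 16.57 TPM with FeAc, at 16.40 and 20.00 TPM with bortezomib, and at 23.94 and 17.46 TPM with bortezomib plus FeAc. Its group means ran from 16.5 to 20.7 TPM, and every pair of neighbouring groups overlapped. The log2 fold change was 0.13 (95% interval -0.34 to 0.59) for bortezomib against vehicle.

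LPCAT3 (ENSG00000111684, chr12:6976186-7018510, minus strand), the acyltransferase that inserts polyunsaturated chains, was at 10.69 and 19.28 TPM with vehicle, at 15.49 and 14.07 TPM with FeAc, at 14.53 and 13.58 TPM with bortezomib, and at 9.56 and 14.15 TPM with bortezomib plus FeAc. The 2 vehicle samples alone covered nearly the whole range of the gene. Bortezomib against vehicle gave -0.033 (95% interval -0.69 to 0.62). LPCAT3 overlaps EMG1 (36.65 to 53.23 TPM) and C1S (1.29 to 6.2 TPM) on the opposite strand, and whether the counting used strand was not given in the sources used here.

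POR (ENSG00000127948, chr7:75899200-75986855, plus strand) was at 22.22 and 28.72 TPM with vehicle, at 30.03 and 29.33 TPM with FeAc, at 30.31 and 28.52 TPM with bortezomib, and at 24.52 and 35.92 TPM with bortezomib plus FeAc, the widest pair of its 4. All neighbouring groups overlapped, and bortezomib against vehicle gave 0.21 (95% interval -0.27 to 0.69). It overlaps TMEM120A (20.82 to 24.03 TPM) on the opposite strand.

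VDAC2 (ENSG00000165637, chr10:75210154-75231448, plus strand) was at 97.88 and 100.62 TPM with vehicle, at 97.61 and 112.09 TPM with FeAc, at 114.31 and 105.79 TPM with bortezomib, and at 98.07 and 110.81 TPM with bortezomib plus FeAc. Groups that were neighbours in the order overlapped here too, but both bortezomib samples lay above both vehicle samples. The interval for bortezomib against vehicle, -0.18 to 0.48 around 0.15, was narrower than that of LPCAT3 or POR and leaves changes of either sign within it.

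The second question was what iron supplementation did to the same genes. None of the 10 was called for FeAc against vehicle, where 0.0143% of all genes tested were called, and none for bortezomib plus FeAc against bortezomib, where 0.00721% were called. At an unadjusted p under 0.05, 1 of 10 genes passed in the first (3.82% of all genes) and 0 of 10 in the second (2.09%). The gene that passed was AIFM2, whose mean was 1.47-fold higher with FeAc (log2 fold change 0.52, SE 0.17, limma adjusted p = 0.891). The 10 genes had a median log2 fold change of 0.16 against 0.085 over all genes for FeAc against vehicle, and of -0.14 against -0.040 for bortezomib plus FeAc against bortezomib.

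Without bortezomib, both FeAc samples lay above both vehicle samples for 6 of the 10 genes (SLC7A11, AIFM2, GCH1, DHODH, ACSL4 and POR), and below them for GPX4. Over all genes tested, 23.4% lay higher and 10.4% lower in this way. DHODH differed by 0.58 (SE 0.24), SLC7A11 by 0.36 (SE 0.33), GCH1 by 0.29 (SE 0.21) and GPX4 by -0.14 (SE 0.15), all on the log2(TPM + 1) scale and none of them called.

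With bortezomib in both arms, none of the 10 genes lay higher with FeAc without overlap (8.86% of all genes), and 2 lay lower, GPX4 and GCH1 (13.1% of all genes). GPX4 differed by -0.21 (SE 0.15) and GCH1 by -0.21 (SE 0.20). DHODH differed by -0.44 (SE 0.38), with overlapping samples.

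Whether the effect of FeAc differed with and without bortezomib was tested as an interaction in a fit of all 4 groups. None of the 10 genes passed, against 0.00675% of all genes, and 1 of 10 had an unadjusted p under 0.05 (2.35% of all genes). That gene was AIFM2 (-0.63, SE 0.22, limma adjusted p = 0.983), with a difference for FeAc of 0.52 without bortezomib and of -0.11 with it. GCH1 was the gene whose FeAc samples lay above their controls without bortezomib and below them with it, with no overlap either time (-0.49, SE 0.26, limma adjusted p = 0.983). The interaction of DHODH was -1.01 (SE 0.49), that of SLC7A11 -0.53 (SE 0.33) and that of GPX4 -0.069 (SE 0.20).

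The balance between genes was described by the ratio of their TPM within each sample, which does not depend on the scaling of the sample. GPX4 was 29.5 and 22.5 times AIFM2 with vehicle, 16.8 and 15.2 times with FeAc, 5.18 and 5.06 times with bortezomib, and 5.03 and 4.60 times with bortezomib plus FeAc. The ratio was lower with FeAc than with vehicle in each sample, and lowest in the 4 samples with bortezomib. AIFM2 was 1.18 to 2.04 times DHODH, its mitochondrial counterpart, in the 4 samples without bortezomib and 5.94 to 14.4 times in the 4 with it. ACSL3 was 1.04 to 1.30 times ACSL4 without bortezomib and 1.48 to 2.38 times with it, with no overlap.

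**Figure D3:**
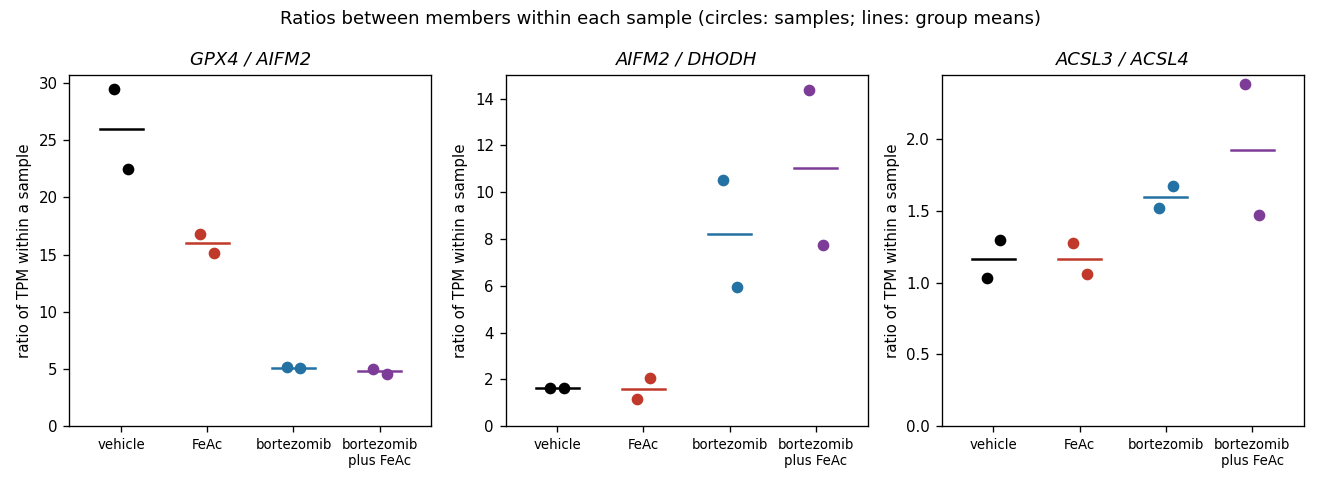
Ratios of TPM between pairs of genes within each sample (axes from 0), with circles for samples and lines for group means. GPX4 over AIFM2 is at 15.2 or more without bortezomib and at 5.18 or less with it, and both AIFM2 over DHODH and ACSL3 over ACSL4 are higher in all 4 samples with bortezomib than in all 4 without.

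Genes that work with these 10 were followed in 10 lists of 90 genes, of which 81 were tested with bortezomib against vehicle. The lists were chosen with earlier results of these data known, so their shares beside those of all genes are a description. Of the 81, 20 were called higher and 7 lower (33.3%, against 12.2% of all genes). With FeAc in both arms 16 were called higher and 11 lower (33.3%, against 13.8% of all genes). With limma, 0 genes of any list were called for FeAc against vehicle, for bortezomib plus FeAc against bortezomib or in the interaction, and 9 of 81, 1 of 79 and 1 of 81 had an unadjusted p under 0.05, against 3.82%, 2.09% and 2.35% of all genes. Without single samples the count of 27 against vehicle ranged from 4 (without replicate 1 of bortezomib) to 30. The count against FeAc, also 27, became 1 without replicate 1 or replicate 2 of FeAc and 42 without replicate 2 of bortezomib plus FeAc.

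Beside SLC7A11, 8 of 9 genes of glutathione supply were called higher with bortezomib against vehicle (GCLC, GCLM, GSR, CTH, CHAC1, CBS, SLC3A2 and MTHFD2), and 0 lower, with a median log2 fold change of 1.83 against -0.056 over all genes. This was 88.9% of the list, against 12.2% of all genes called in either direction and 6.27% called higher. SLC3A2, the heavy chain that carries SLC7A11 to the membrane, was at 81.46 and 90.86 TPM with vehicle, 121.86 and 135.37 with FeAc, 436.32 and 358.89 with bortezomib, and 514.89 and 330.58 with both (bortezomib against vehicle 2.19, SE 0.22, adjusted p = 0.00261). GCLM, the modifier subunit of the enzyme that starts glutathione synthesis, was at 3.14 and 3.58, 4.18 and 3.73, 16.05 and 16.44, and 17.18 and 14.61 TPM in the same order of groups (1.99, SE 0.17, adjusted p = 0.00166). GSR, which regenerates glutathione, differed by 1.83 (SE 0.15), and GCLC, the catalytic partner of GCLM, by 0.70 (SE 0.15). CTH and CBS, which supply cysteine by transsulfuration, differed by 1.65 and 2.50, and CBS was listed at 0 in 1 vehicle sample. CHAC1, which degrades glutathione and so acts against the name of the list, differed by 2.05 (SE 0.28), and the mitochondrial folate enzyme MTHFD2 by 0.66 (SE 0.15). Against FeAc, GCLM, GSR, CTH, CHAC1 and SLC3A2 were called higher, 55.6% of the list against 13.8% of all genes. Without single samples the count of 8 ranged from 2 to 8, lowest without replicate 1 of bortezomib, and the count of 5 ranged from 0 to 6, lowest without replicate 2 of FeAc.

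Around GPX4, 2 of 10 genes of selenoprotein synthesis and peroxide reduction were called in both bortezomib comparisons, TXNRD1 higher (1.44, SE 0.15, against vehicle) and MGST1 lower (-1.23, SE 0.17). This is 20% of the list, near the 12.2% and 13.8% of all genes called, so nothing is read from the list as a whole. TXNRD1 is the cytosolic thioredoxin reductase, itself a selenoprotein, and was at 73.4 to 101.67 TPM in the 4 samples without bortezomib and at 201.05 to 224.94 TPM in the 4 with it. MGST1, a membrane-bound glutathione transferase and peroxidase, was at 16.49 to 20.73 TPM without bortezomib and at 5.93 to 7.36 TPM with it. The other 8 genes of this list, GPX1 among them, were not called in either comparison.

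Around GCH1, 4 of 6 genes of tetrahydrobiopterin synthesis and recycling were called with bortezomib against vehicle, in both directions. This was 66.7% of the list, against 12.2% of all genes, and the count fell in some fits that left out a single sample. SPR, which completes the synthesis, was at 13.91 to 17.23 TPM without bortezomib and at 54.49 to 85.56 TPM with it (2.29, SE 0.19, adjusted p = 0.00166). PCBD1, a recycling enzyme, differed by 1.06 (SE 0.23). GCHFR, the feedback regulator that inhibits the GCH1 enzyme, was at 8.43 to 11.38 TPM without bortezomib and at 5.23 to 6.14 TPM with it (-0.95, SE 0.17, adjusted p = 0.0142). SPR was called higher against FeAc as well.

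Around AIFM2 and DHODH, which use ubiquinone, 2 of 13 genes listed for ubiquinone synthesis were called against vehicle, both lower. That share, 15.4%, is near the 12.2% of all genes, and nothing is read from it about the list. COQ2, which joins the ring and the side chain of ubiquinone, was at 27.77 to 36.29 TPM without bortezomib and at 6.89 to 9.73 TPM with it (-1.84, SE 0.19, adjusted p = 0.00268). COQ9 differed by -0.75 (SE 0.17). Against FeAc, COQ2 and COQ9 were called lower again. None of the 3 other genes of pyrimidine synthesis was called against vehicle, and CAD, which catalyses the first steps of that pathway, was lower against FeAc (-1.52, SE 0.36, adjusted p = 0.0351). CAD was at 45.3 and 39.59 TPM with FeAc and at 8.77 and 22.43 TPM with both agents, lower in replicate 1.

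Around ACSL4, ACSL3 and LPCAT3, 1 of 13 genes of fatty acid activation and phospholipid remodelling was called against vehicle, ELOVL5, an elongase of polyunsaturated fatty acids (0.63, SE 0.15). Against FeAc, 2 were called lower, the desaturases FADS1 (-1.57, SE 0.28) and SCD (-1.49, SE 0.39). These shares, 7.69% and 15.4%, lie under or near the 12.2% and 13.8% of all genes. FADS1 was at 5.29 and 6.82 TPM with vehicle, at 13.06 and 12.40 TPM with FeAc, at 3.61 and 3.65 TPM with bortezomib, and at 2.48 and 5.12 TPM with both, so its FeAc samples stood above the rest. SCD was at 22.75 and 32.25 TPM with vehicle and at 87.7 and 78.67 TPM with FeAc. With both agents it was at 17.85 and 46.77 TPM, so its samples differed widely and the lower was replicate 1.

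Around POR, 3 of the 5 tested genes of lipid oxidation were called in both bortezomib comparisons. Each time this was 60% of those tested, against 12.2% and 13.8% of all genes. In each comparison the count fell in some fits that left out a single sample. CYB5R1, a reductase that passes electrons from NADH, was at 48.53 to 74.95 TPM without bortezomib and at 246.15 to 270.23 TPM with it (2.14, SE 0.17, adjusted p = 0.00166). ALOX5, a lipoxygenase, was lower (-1.18, SE 0.28), as was CYBB, a NADPH oxidase subunit, at 3.19 to 3.6 TPM without bortezomib and 0.59 to 1.26 TPM with it. The other 7 of the 12 genes in this list did not reach a mean of 1 TPM in any group. Among these, ALOX15B, NOX1 and NOX4 were listed at 0 in all 8 samples. Of the 2 other channel genes beside VDAC2, VDAC3 was called higher against FeAc (0.91, SE 0.22) and not against vehicle.

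Of 11 iron genes, 2 were called higher in both bortezomib comparisons, HMOX1, which releases iron from heme, and FTL, the light chain of ferritin. All called iron genes made up 18.2% of the list against vehicle and 27.3% against FeAc, beside 12.2% and 13.8% of all genes. HMOX1 was at 12.42 and 12.52 TPM with vehicle, at 22.96 and 21.81 TPM with FeAc, at 544.47 and 319.76 TPM with bortezomib, and at 1663.19 and 339.03 TPM with both, so replicate 1 of bortezomib plus FeAc stood far above its partner. FTL differed by 2.69 (SE 0.31) against vehicle and by 2.55 (SE 0.31) against FeAc. STEAP3, an endosomal iron reductase, was called lower against FeAc (-1.60, SE 0.43). It was at 18.35 and 14.14 TPM with FeAc and at 2.82 and 7.38 TPM with both agents, lower in replicate 1. TFRC, the transferrin receptor, was at 119.52 and 122.5 TPM with vehicle and at 57.44 and 52.57 TPM with FeAc, and it was not called (-1.12, SE 0.14, adjusted p = 0.174). FTH1, the heavy chain of ferritin, was not called in any comparison and was at 247.4 to 433.0 TPM over the 8 samples.

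Of 9 tested regulators, 5 were called higher against vehicle, the stress factors NFE2L2 (0.77, SE 0.14) and ATF4 (0.80, SE 0.21), their partners or opponents KEAP1 (0.85, SE 0.16) and BACH1 (1.28, SE 0.16), and the small heat shock protein HSPB1 (4.65, SE 0.59). NFE2L2 encodes NRF2, KEAP1 marks NRF2 for degradation, and BACH1 represses genes that NRF2 activates. Against FeAc, KEAP1, NFE2L2, BACH1 and HSPB1 were called again and SAT1, a polyamine enzyme, was called as well (1.37, SE 0.35), whereas ATF4 was not. In either comparison 55.6% of the tested regulators were called, against 12.2% and 13.8% of all genes. Both counts of regulators fell in some fits that left out a single sample.

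**Figure D4:**
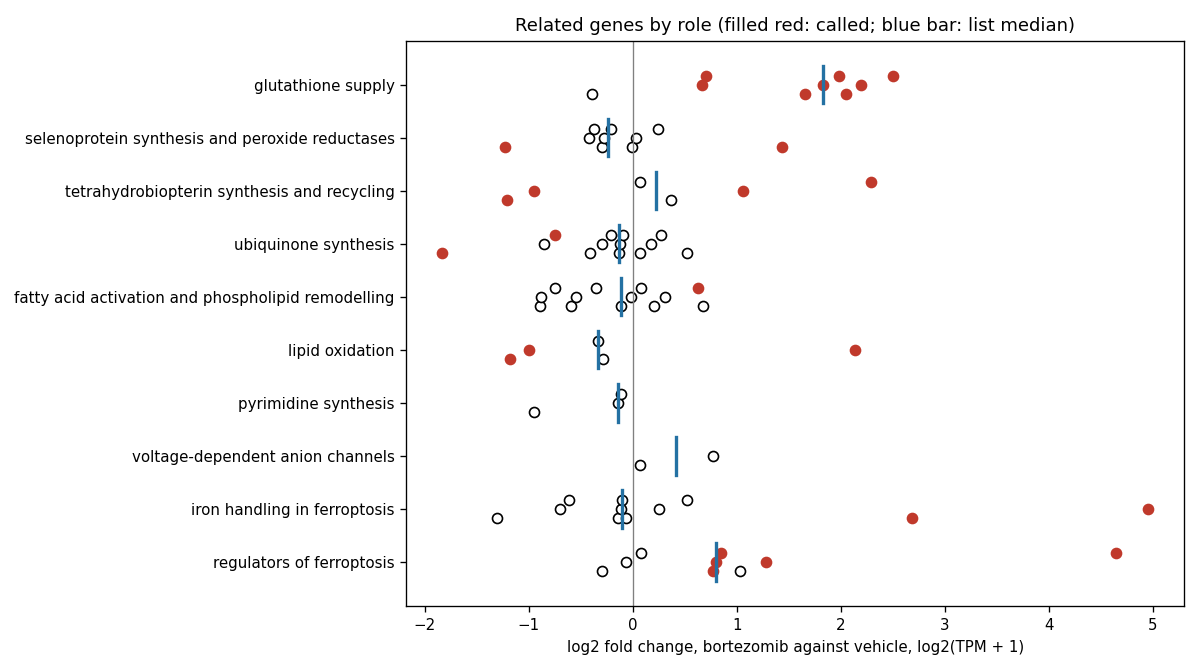
Log2 fold change of bortezomib against vehicle on log2(TPM + 1) for the 81 tested genes that work with the 10 ferroptosis genes, grouped by role, with filled red circles for genes called and a blue bar for the median of each list. In the glutathione list 8 of 9 genes are called, all higher with a median of 1.83, while the tetrahydrobiopterin list holds genes called on both sides of 0. Of all genes tested, 12.2% are called.

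The genes whose levels ran closest to those of SLC7A11 and AIFM2, the 2 genes with the widest spread of group means, were sought among 10402 genes by Pearson correlation of log2(TPM + 1) over the 8 samples. For SLC7A11 they were the chaperone HSP90AB1 (r = 0.9984), GCLM (r = 0.9979) and the prolyl hydroxylase subunit P4HA2 (r = 0.9978). For AIFM2 they were the proteasome subunit PSMD11 (r = 0.9981), the small MAF protein MAFG (r = 0.9971) and PLBD2 (r = 0.9971). These values are a description, since the samples fall into those with and without bortezomib, and 518 genes for SLC7A11 and 415 for AIFM2 had r above 0.95.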

How the data were processed

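RNA was extracted with TRIzol, libraries were made with the TruSeq kit, and 2 samples per group were named as biological replicates in the supplementary methods. Of tools, the processing notes of the submitters list edgeR, DESeq2, RSEM, StringTie and HISAT2, with build GRCh38.p13. What each tool did, with which version and annotation, was not given in the sources used here. As deposited by the authors, there is 1 table for the groups without bortezomib and 1 for those with it. The deposited values, taken as TPM because each sample column sums to nearly the same total, had been scaled by the authors for gene length and sample total, and the headers give no unit. The authors' group means, fold changes and p-values in those tables were not used.

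Groups followed the labels. Genes that averaged 1 TPM or more in any group of a fit were tested with limma-trend (limma 3.58.1, R 4.3.3) on log2(TPM + 1), with Benjamini-Hochberg adjustment over all genes tested. Calls needed an adjusted p under 0.05 with a fold change over 1.5 (for the interaction, the adjusted p alone). FeAc against vehicle and bortezomib plus FeAc against bortezomib were each fitted within 1 table, and the other comparisons in 1 fit of all 4 groups across both tables. Several comparisons share samples. All p-values are two-sided. TPM hold no counts, so depth is unknown and no counting interval is given. The script was tested on simulated data.

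The text names all 10 genes, each listed related gene that was called in any comparison, TFRC, FTH1, GCLM and SLC3A2, the 3 nearest genes for the 2 genes of widest spread, overlapping genes, and HSPA1A and HMOX1 as a check of the labels. Some genes of the lists enter the counts but are not reported here by name. The members and lists were chosen with earlier results of these data known. Alternatives were a pseudocount of 0.1, no filter, scaling by the median of ratios, the replicate number as a block, other groups in the fit, no fold limit and each sample left out. Gene positions are from GENCODE release 29 (GRCh38).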

Additional observations from a re-analysis of the deposited data

How the results depend on the processing

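With 2 samples per group and no read counts, small differences were not detectable, and some larger ones were not called either. For FeAc against vehicle, the uncalled genes of the lists included SCD (log2 fold change 1.58, limma adjusted p = 0.174). FADS1 (0.97, limma adjusted p = 0.719) and TFRC (-1.12, limma adjusted p = 0.174) were uncalled as well. Over all genes, calls for FeAc against vehicle numbered 2, and 4 with a pseudocount of 0.1, 0 without a filter, 1 in a fit of all 4 groups and 0 to 0 without single samples. For bortezomib plus FeAc against bortezomib they numbered 1, and 0 without a filter, 0 in a fit of all 4 groups and 0 to 0 without single samples. For bortezomib against vehicle 1800 fell to 799 without a filter and ranged from 74 (without replicate 1 of bortezomib) to 2255 without single samples. For bortezomib plus FeAc against FeAc 2044 fell to 613 without a filter and 107 in a fit of the 2 groups, and ranged from 55 (without replicate 1 of FeAc) to 3275 (without replicate 2 of bortezomib plus FeAc). The interaction gave 1, and 0 with a pseudocount of 0.1, without a filter and with the replicate block, and 5 to 18 without single samples. Of the 10 ferroptosis genes, the 3 called against FeAc became 1 in a fit of the 2 groups and 0 to 3 without single samples, and the 3 called against vehicle became 2 to 3 without single samples. In single genes, the GCH1 call against vehicle was lost without a filter (adjusted p = 0.0842) and in a fit of the 2 groups (adjusted p = 0.0584), and the DHODH call against FeAc without a filter (adjusted p = 0.140), with median of ratios scaling (adjusted p = 0.0559), with the replicate block (adjusted p = 0.0535) and in a fit of the 2 groups (adjusted p = 0.109). The causes were not tested. Without single samples, differences of uncalled genes changed sign within these ranges of log2 fold change. For FeAc against vehicle they were -0.023 to 0.21 (ACSL3), -0.36 to 0.43 (LPCAT3) and -0.024 to 0.17 (VDAC2). For bortezomib plus FeAc against bortezomib they were -0.46 to 0.13 (SLC7A11), -0.16 to 0.055 (ACSL4), -0.050 to 0.38 (ACSL3), -0.51 to 0.0098 (LPCAT3), -0.25 to 0.28 (POR) and -0.16 to 0.011 (VDAC2). For bortezomib against vehicle they were -0.56 to 0.053 (DHODH), -0.0063 to 0.27 (ACSL3) and -0.43 to 0.36 (LPCAT3). For bortezomib plus FeAc against FeAc they were -0.017 to 0.42 (ACSL3), -0.27 to 0.27 (POR) and -0.10 to 0.094 (VDAC2). In the interaction they were -0.15 to 0.010 (GPX4), -0.15 to 0.29 (ACSL3), -0.68 to 0.11 (LPCAT3) and -0.48 to 0.056 (POR). Scaling by the median of ratios moved the median of all genes by 0.17 for bortezomib plus FeAc against FeAc, where 732 higher and 1312 lower calls (35.8% higher) became 1084 and 812 (57.2% higher), and by 0.12 in the interaction. It reversed LPCAT3 (-0.054) and VDAC2 (-0.019) for FeAc against vehicle, LPCAT3 (0.039) for bortezomib against vehicle, VDAC2 (0.20) against FeAc and GPX4 (0.065) in the interaction, none of them called. Equal replicate numbers did not pair the samples (correlations of deviations from -0.148 to 0.186). With the number as a replicate block, FeAc against vehicle gave 23 calls, and 16 with the numbers crossed, a pairing chosen after seeing the data. Both of these held 1 gene of the related lists, SCD, higher with FeAc, where 0 of 81 were called without the block.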

Other observations

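Rows close to the 10 genes held signals of their own. SLC7A11-AS1, the antisense transcript of SLC7A11, was at 0.01 and 0.01 TPM with vehicle, at 0.03 and 0.08 TPM with FeAc, at 0.92 and 0.62 TPM with bortezomib, and at 1.31 and 0.84 TPM with bortezomib plus FeAc, so it was higher in all 4 samples with bortezomib, as SLC7A11 was. Whether the counting kept the strands apart is not given in the sources used here, and reads of the 2 genes cannot be told apart without it. VDAC2P3, a processed pseudogene of VDAC2, was at 8.24 and 6.08 TPM with vehicle, at 1.92 and 1.85 TPM with FeAc, at 1.6 and 0.72 TPM with bortezomib, and at 0.68 and 3.28 TPM with bortezomib plus FeAc, while VDAC2 itself stayed at 97.61 to 114.31 TPM. Reads shared between such near-identical copies may have been split between them, which was not tested.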
